A study of Rattus norvegicus with 22 samples.

Results

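The interaction of exercise and hypoxia in rat gastrocnemius muscle was examined, that is, how far the response to treadmill exercise differed between hypoxia and normoxia. It was taken for each nuclear gene as the difference MHE minus MH less the difference MCE minus MC, on the log2 scale. All 12 muscle libraries of the 22 in the series were used, 3 in each group, and 12237 of 32586 nuclear genes passed the filter on low counts and were tested. The 4 groups were the muscle normoxia quiet group (MC), the muscle normoxia exercise group (MCE), the muscle hypoxic quiet group (MH) and the muscle hypoxia exercise group (MHE). All rats of these groups were male Sprague Dawley (SD) rats, 3 weeks old at the start, that were made obese on a high-fat diet for 8 weeks and then kept for 4 weeks at rest or with running, at 21% oxygen or at a lowered oxygen level. They were fasted for 12 h before sampling. Running lasted 60 min a day on 5 days a week from 17 h of the day, and the speed was 25 m/min for MCE but 20 m/min for MHE, so that speed and oxygen cannot be told apart in the interaction. The text of the study reads as 1 rat per library, and p-values measure the spread between these 12 libraries.

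When 2 treatments act additively on the log2 scale, the response to one is the same with and without the other, and the interaction is 0. A positive interaction means that exercise raised a gene more, or lowered it less, in hypoxia than in normoxia, and a negative one the reverse. Muscle carries its own circadian clock, in which Arntl (BMAL1) with Clock or Npas2 drives the Per and Cry repressors and the REV-ERB receptors, and these in turn hold back the drivers. Contraction induces immediate-early transcription factors within minutes, while low oxygen acts on muscle through hypoxia-inducible factors, mitochondrial adaptation and, when protein folding in the endoplasmic reticulum is disturbed, the unfolded protein response.

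Total counts per library ranged from 27149905 to 43834953, but mitochondrially encoded genes took 89.4% to 97.4% of them. Nuclear counts, on which the test was run, ranged from 841153 in MH3 to 4334813 in MH2. Levels are given as counts per 1000000 of the normalized nuclear library (CPM). The 9 contractile genes that were measured summed to between 42283 and 102101 CPM in all libraries, as the tissue label states. The summed level of 16 adipocyte markers was 3499 to 4629 CPM in MHE, against 2500 to 3697 in MC, 1989 to 3579 in MCE and 1963 to 2728 in MH, with at most 2 of the 16 at 0 in a library. MHE was thus above MH with no overlap, while MC2 (3594 CPM), MC3 (3697 CPM) and MCE2 (3579 CPM) lay above MHE1 (3499 CPM). The sum is not specific to fat cells, as it holds, for example, Gpd1 (309 CPM on average), which is also listed under glycolysis. How specific the other members, such as Fabp4 (721 CPM on average), are to fat cells in this tissue was not tested. The part of these markers in the results was not tested. In bulk tissue, fewer cells of a type and less RNA per cell cannot be told apart.

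No gene passed the test of the interaction (0 of 12237, 0% called, edgeR quasi-likelihood test with Benjamini-Hochberg adjustment), and the smallest adjusted p was 0.123, for Rpl30. At an unadjusted p under 0.05 there were 476 genes (3.89%), 187 positive (1.53%) and 289 negative (2.36%). Of all 12237 genes, 5870 had a positive and 6367 a negative value. These shares are the background for the counts of list members below, where 1 or 2 members at that p are a description only. DESeq2 called 14 genes, which included Dbp, Cry1, Rpl30, Fmo1, Fmo2, Tmcc3, Bgn, RT1-Bb and Ctsl. With edgeR, Dbp was called when MCE1 was left out (1 gene, adjusted p = 0.0328) and Rpl30 when MCE2 was left out (1 gene, adjusted p = 0.0331). The median interaction over all tested genes was -0.02.

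The same fit shows how well additivity was resolved. The 95% interval of the interaction lay wholly between -1 and 1, that is, within 2-fold of additive, for 1954 genes (16%). This share was 0.219% of the genes under 20 CPM, 22.4% of those at 20 to 100 CPM and 48.7% of those over 100 CPM. The median standard error was 0.55, and the median 95% interval reached 1.17 to either side of its estimate. For most genes an estimate of under 2-fold therefore did not exclude 0, even before adjustment. Larger values could also go uncalled, as for Rpl30 at 2.43 (edgeR adjusted p = 0.123). The parts of depth and of spread between libraries in these errors were not tested.

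**Figure D1:**
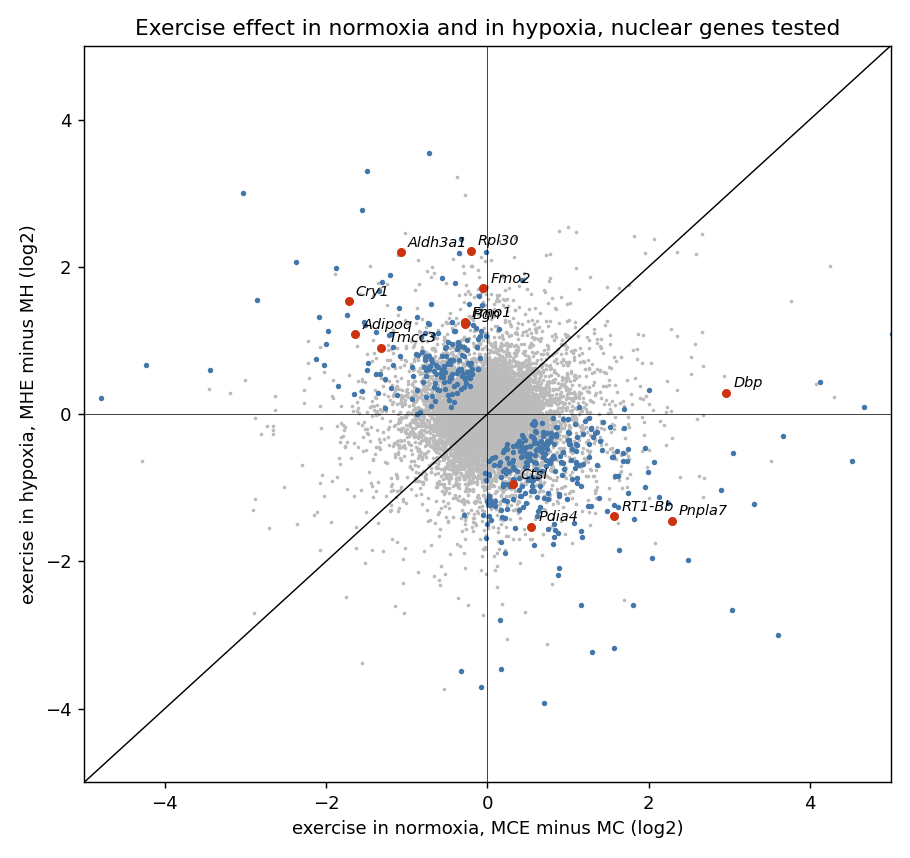
Exercise effect in hypoxia (MHE minus MH, log2, vertical) against that in normoxia (MCE minus MC, log2, horizontal) for the tested nuclear genes, of which 24 fall outside the axes. The diagonal marks additivity, blue points are genes with an unadjusted interaction p under 0.05, and red points are 13 named genes, which lie far to either side of the diagonal.

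Among the 476 genes at an unadjusted p under 0.05, the exercise effect had opposite signs in normoxia and hypoxia, with at least 0.5 on the log2 scale in each, for 195 genes. It was present mainly in hypoxia for 144 genes and mainly in normoxia for 103, was under 0.5 in both for 32 and had 1 sign in both for 2. Over all tested genes, opposite signs were seen in 613 (5.01%) and 1 sign in 456 (3.73%). Choosing genes on the interaction sets these signs in part, and with them the overlap between groups of genes named for it. The classes and overlaps are therefore a description. The plot of the exercise effect in hypoxia against that in normoxia shows the same genes as clouds in the upper left and the lower right.

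The clock gave the leading pair of genes with opposite interactions. Dbp, a clock-driven transcription factor of the PAR bZIP family (chromosome 1, 101687855 to 101692846, positions as in the deposited table for Ensembl release 99), was at 28.1, 35.6 and 27.4 CPM in MC and at 113, 401 and 194 CPM in MCE. In MH it was at 369, 380 and 296 CPM and in MHE at 444, 462 and 377 CPM. All MC libraries were below all others, and MHE overlapped both MCE and MH. Exercise raised Dbp by 2.97 on the log2 scale in normoxia (edgeR adjusted p = 0.0164, the 1 gene called in that contrast, 0.00817% of those tested), and the value in hypoxia was 0.29. The interaction was -2.67 (SE 0.49, 95% interval -3.73 to -1.62, edgeR adjusted p = 0.299). If both log2 effects had added, MHE would have averaged 2725 CPM, whereas its mean was 428 CPM, or 0.157 of that level. The size of this gap depends on the scale and on the low MC mean (30.4 CPM). On the linear scale the interaction of Dbp was -127 CPM.

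Cry1, a repressor of the clock loop (chromosome 7, 24534615 to 24634097), ran the other way. It was at 39.9, 23.7 and 24.7 CPM in MC, 10.3, 11.2 and 5.57 CPM in MCE, 7.48, 3.66 and 7.12 CPM in MH and 17.4, 20.1 and 12.8 CPM in MHE. MC lay above all other libraries and MHE lay above MCE and MH, so each treatment alone went with a low level and the combination with a level between. The exercise effect was -1.72 in normoxia and 1.53 in hypoxia, with an interaction of 3.25 (SE 0.59, edgeR adjusted p = 0.299). Neither exercise effect of Cry1 was called by edgeR, and naming it on its interaction sets this pattern in part. Its mean of 15.3 CPM lay under the 20 CPM asked of the genes named by smallest p, and it was named from the core clock list.

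All 17 genes of the core clock list were tested, and 1 had a positive and 5 a negative interaction at an unadjusted p under 0.05, against 1.53% and 2.36% of all tested genes. The list median was -0.14, and ran from -0.43 without MHE3 to 0.21 without MC3. The negative members were Nr1d2 and Nr1d1 (REV-ERB receptors), Ciart (a repressor of the CLOCK and BMAL1 pair), Npas2 (a CLOCK relative) and Per1. Nr1d2 was at 81.0, 114 and 63.9 CPM in MC and at 163 to 267 CPM in all other libraries, with an exercise effect of 1.14 in normoxia and 0.10 in hypoxia. Nr1d1 had an interaction of -1.31 (SE 0.42) and Per1 one of -1.62 (SE 0.63), with exercise effects of 1.21 and 1.69 in normoxia and of -0.10 and 0.07 in hypoxia. Ciart was at 2.25, 0 and 0 CPM in MC, 5.02, 42.0 and 7.65 in MCE, 10.4, 47.1 and 17.8 in MH and 35.5, 18.7 and 28.9 in MHE, with an interaction of -4.58 (SE 1.44) that was -8.31 without MC1 and -3.16 without MCE2. For these repressors and receptors, all but Npas2 were lowest in MC, and the means of the other 3 groups lay closer together. The hour of sampling of each group is not given in the sources used here, so time of day and treatment cannot be told apart for clock genes.

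Promoters are shown for the clock genes Ciart, Per2 and Arntl and for Pnpla7, as examples of clock-related motifs, chosen after the search. The 300 bases run from 250 before to 50 after the start site in RefSeq (GRCr8), and 49 of 69 named genes had an entry. Motifs in capitals are the E-box CACGTG, bound by the BMAL1 pairs and found in 6.42% of 33469 rat promoters, the D-box form TTATGTAA, bound by DBP (0.893%), and the half-site AGGTCA, bound by REV-ERB and ROR receptors (16.2%), each searched on both strands. The other letters searched were the D-box form TTACGTAA (0.12%), the hypoxia response core ACGTG (19.3%, which lies within the E-box), the cAMP response element TGACGTCA (1.83%) and, by name, the ER stress element (0.0657%). Ciart (chr2:186112197-186112496, minus strand) held 3 E-boxes and Pnpla7 (chr3:28180501-28180800, plus strand) 2. Per2 (chr9:99496944-99497243, minus strand) held the D-box form at -192 and Arntl (chr1:176766078-176766377, plus strand) the half-site at -15 from the start site. The window of Dbp held none of the motifs. Over the 49 named genes the E-box was found in 4, the half-site in 7 and the TTATGTAA form in 1, which is near the shares of all promoters, and further members with a match were Pfkfb3 and Hsph1 (E-box) and Nr1d2, Ucp3, Fmo2, Tspan2, Ppp1r15a and Oas1a (half-site). The hypoxia response core was found in 21 of the 49 (42.9% against 19.3% of all promoters), a count with no test. The sets are unlike, since the 33469 promoters were not limited to genes expressed in muscle. The named genes were also drawn in part from lists of clock, glycolysis and hypoxia-inducible factor target genes. A match is a description of letters and not a binding site.
Ciart: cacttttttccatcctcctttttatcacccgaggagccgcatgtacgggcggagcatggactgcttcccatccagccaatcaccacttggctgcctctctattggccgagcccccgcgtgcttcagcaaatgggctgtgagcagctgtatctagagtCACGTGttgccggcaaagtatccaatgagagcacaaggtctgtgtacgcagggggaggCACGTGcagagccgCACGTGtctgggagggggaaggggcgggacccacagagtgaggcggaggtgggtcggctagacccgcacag
Pnpla7: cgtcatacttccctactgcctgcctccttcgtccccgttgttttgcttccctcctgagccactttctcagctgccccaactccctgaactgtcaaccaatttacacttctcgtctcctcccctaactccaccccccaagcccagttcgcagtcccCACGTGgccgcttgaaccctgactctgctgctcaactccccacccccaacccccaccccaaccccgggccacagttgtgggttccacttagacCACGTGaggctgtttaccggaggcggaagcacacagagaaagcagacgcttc
Per2: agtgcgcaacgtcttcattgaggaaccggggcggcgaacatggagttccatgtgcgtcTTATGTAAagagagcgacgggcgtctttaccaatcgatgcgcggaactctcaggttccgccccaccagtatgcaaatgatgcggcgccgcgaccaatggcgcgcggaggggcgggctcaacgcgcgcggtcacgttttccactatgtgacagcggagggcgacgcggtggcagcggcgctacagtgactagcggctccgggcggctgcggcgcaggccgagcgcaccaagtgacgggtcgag
Arntl: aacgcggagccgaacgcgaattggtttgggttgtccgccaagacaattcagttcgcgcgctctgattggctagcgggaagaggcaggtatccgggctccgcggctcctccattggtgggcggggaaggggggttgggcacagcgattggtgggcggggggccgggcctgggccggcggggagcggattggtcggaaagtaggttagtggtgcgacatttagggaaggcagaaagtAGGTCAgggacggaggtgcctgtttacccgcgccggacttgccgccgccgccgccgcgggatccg

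**Figure D2:**
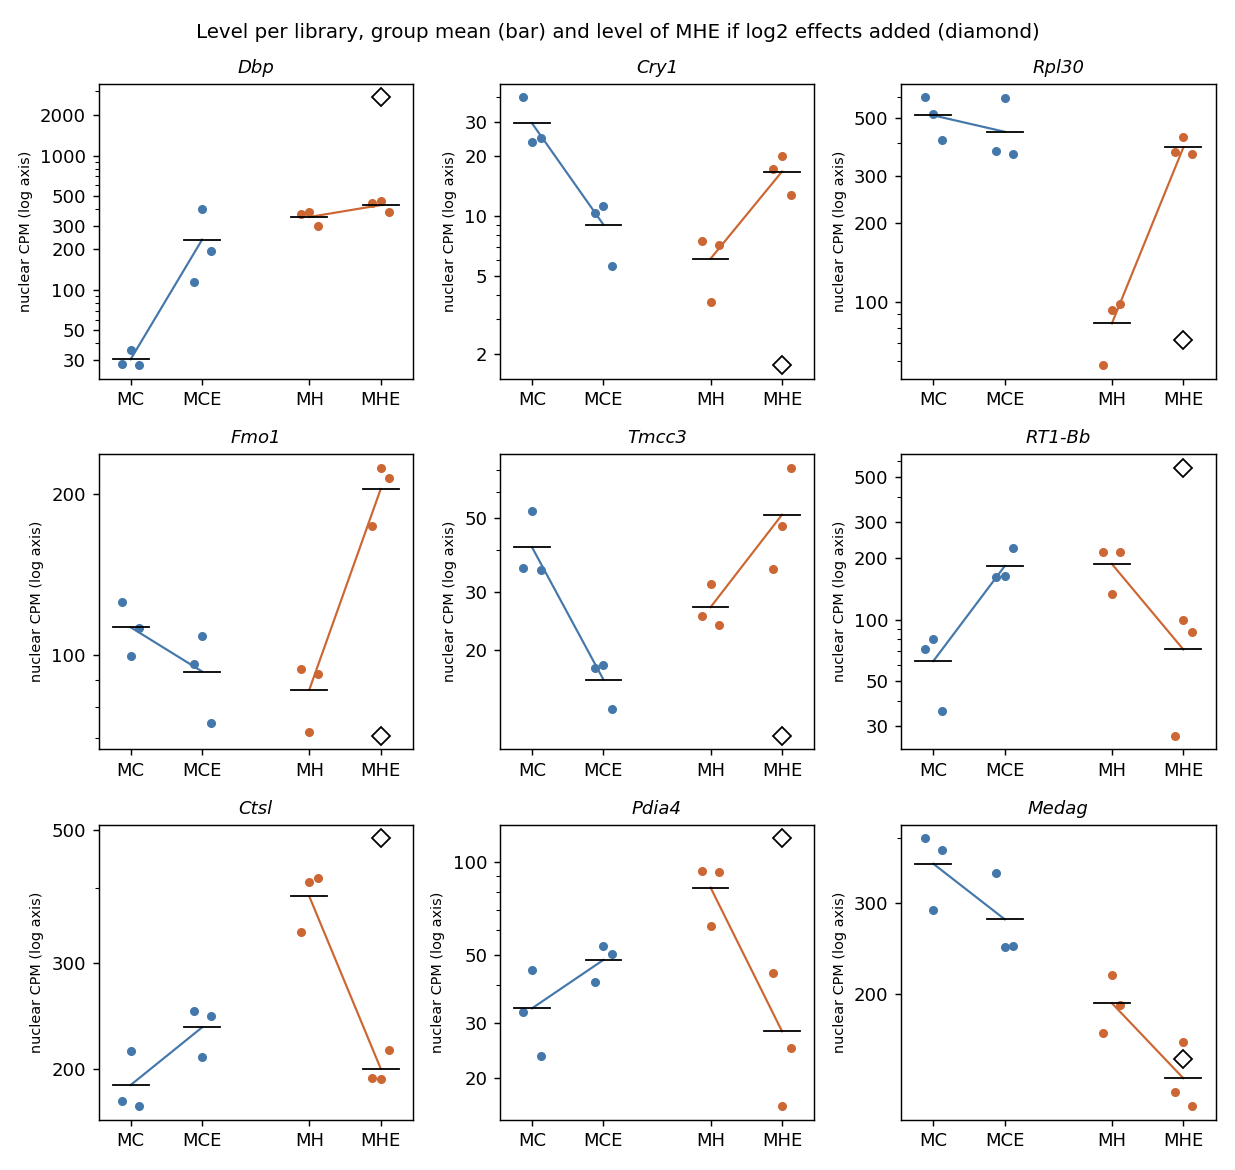
CPM per library (points, log axis) for 9 genes in the 4 groups, 3 libraries each, with group means as bars joined within normoxia (blue) and hypoxia (orange). The diamond is the MHE level if log2 effects had added, and it lies far from the MHE points for all genes but Medag.

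Rpl30, which encodes a protein of the large cytosolic ribosomal subunit, had the smallest interaction p. It was at 600, 519 and 414 CPM in MC, 373, 592 and 364 in MCE, 57.7, 93.5 and 98.4 in MH and 371, 422 and 366 in MHE. Only MH stood apart, with its 3 libraries below all others. Exercise raised it by 2.22 in hypoxia (edgeR adjusted p = 0.00976, the 1 gene called in that contrast, 0.00817%) and gave -0.21 in normoxia, with an interaction of 2.43 (SE 0.36, 95% interval 1.65 to 3.21). The table places this feature on chromosome 10 (38024477 to 38024937), while RefSeq lists Rpl30 on another chromosome with several pseudogenes, so reads of near-identical copies may be shared and its values are uncertain.

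The other ribosomal protein genes lay on the same side with smaller values. Of 76 tested, 73 had a positive interaction, against 5870 of 12237 over all tested genes. At an unadjusted p under 0.05 there were 3 (Rpl30, Rpl6 and Rpl3), against 1.53% of all tested genes. The list median was 0.38 (0.20 without MHE2 and 0.58 without MH2) against -0.02 over all genes. Rpl6 was at 1449, 1592 and 1413 CPM in MC, 1162, 1225 and 1222 in MCE, 833, 1211 and 799 in MH and 1331, 1596 and 1149 in MHE, with an interaction of 0.82 (SE 0.30). MH2 was level with MCE, and the other MH libraries were lower. The number at an unadjusted p under 0.05 was 18 without MH2, 1 without MHE2 and 5 without MHE3. The summed level of the 76 genes was 56727 to 95278 CPM in MH and 75285 to 110527 in MHE, so the groups overlapped.

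Of the 12 genes of at least 20 CPM with the smallest p among positive interactions, 6 had exercise effects of opposite sign, 5 had one mainly in hypoxia and 1 mainly in normoxia. Fmo1 and Fmo2, neighbouring flavin-containing monooxygenase genes on chromosome 13, belong to those with an effect mainly in hypoxia. Fmo1 was at 126, 99.9 and 113 CPM in MC, 96.5, 109 and 74.8 in MCE, 94.3, 72.0 and 92.5 in MH and 175, 224 and 215 in MHE, which lay above all other libraries. Its interaction was 1.53 (SE 0.30, edgeR adjusted p = 0.299), with an exercise effect of 1.25 in hypoxia and -0.28 in normoxia. Fmo2 had an interaction of 1.76 (SE 0.39), with 108, 196 and 192 CPM in MHE against 43.9 to 61.5 in MH.

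Tmcc3, an endoplasmic reticulum membrane protein, had exercise effects of opposite sign by their point estimates. It was at 35.4, 52.4 and 34.8 CPM in MC and 17.6, 18.0 and 13.2 in MCE, and at 25.3, 31.7 and 23.7 in MH and 35.1, 47.5 and 71.2 in MHE. The exercised libraries lay below the resting ones in normoxia and above them in hypoxia, with no overlap in either. Neither exercise effect was called by edgeR, and naming the gene on its interaction sets this pattern in part. Its exercise effects were -1.32 and 0.90 and its interaction was 2.22 (SE 0.43, edgeR adjusted p = 0.299).

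Bgn (biglycan, a matrix proteoglycan) resembled Rpl30, with MH at 330, 255 and 280 CPM below all other libraries and an interaction of 1.49 (SE 0.35). The remaining genes with positive values were Aldh3a1 (an aldehyde dehydrogenase, 3.28), Fam111a (8.14), Fabp4 (1.13), Rffl (a ubiquitin ligase, 1.83), Ndufaf5 (an assembly factor of respiratory complex I, 1.24), Tspan2 (1.09) and Ccdc43 (1.15). Fam111a rested on uneven libraries, since MC3 was at 396 CPM while MC1 and MC2 were at 5.63 and 3.96, and its value was 3.32 without MC3 and 11.6 without MCE2.

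Adipocyte markers were the group with the largest positive values among the lists described. Of 15 tested, 14 had a positive interaction, against 5870 of 12237 over all tested genes. At an unadjusted p under 0.05 there were 8 positive ones, against 1.53% of all tested genes, and the list median was 1.13. The group mean was highest in MHE for 13 of 15, against 22.9% of all tested genes. Fabp4, a fatty acid carrier, is listed here as a marker of fat cells. It was at 560, 1016 and 836 CPM in MC and 479.5, 484 and 654 in MCE. In MH it was at 598, 673 and 600 CPM and in MHE at 871, 871 and 1010 CPM. MHE overlapped MC but lay above MCE and MH. Adipoq, the fat cell hormone adiponectin, was at 25.3, 89.0 and 296 CPM in MC, 65.0, 24.7 and 42.1 in MCE, 107, 70.3 and 106 in MH and 114, 248 and 235 in MHE, with an interaction of 2.72 (SE 0.88) that was 1.42 without MC3. Plin1 (the lipid droplet coat, 4.45), Scd (a fatty acid desaturase, 4.27), Cidec (2.79), Lep (4.80), Gpd1 (0.73) and Car3 (1.08) also had positive values. Scd reached 378 CPM in MHE2 alone, and its value was 2.05 without MHE2. The number at an unadjusted p under 0.05 was 5 without MC2 and 4 without MHE2. Schwann cell and nerve markers were positive in 9 of 9, with a median of 1.02, which was 0.105 without MC3 and 1.82 without MCE1, none at an unadjusted p under 0.05, and high sums in MC3, MCE1 and MHE1 (2522 to 3459 CPM).

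Of the 12 genes with the smallest p among negative interactions, 8 had exercise effects of opposite sign, 3 had one mainly in normoxia and 1 mainly in hypoxia. RT1-Bb, the beta chain of a rat MHC class II molecule (chromosome 20, 4039413 to 4049711), was at 72.0, 80.1 and 35.7 CPM in MC, 161, 164 and 223 in MCE, 213, 134 and 215 in MH and 27, 100 and 87.2 in MHE. Exercised libraries lay above resting ones in normoxia and below them in hypoxia, and MHE overlapped MC. Neither exercise effect of RT1-Bb was called by edgeR, and naming it on its interaction sets this pattern in part. Its interaction was -2.96 (SE 0.59, edgeR adjusted p = 0.299), so MHE stood at 0.128 of the level that added effects would give.

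Ctsl, the lysosomal protease cathepsin L (chromosome 17, 1872848 to 1879279), was at 177, 214 and 173 CPM in MC, 249, 209 and 245 in MCE, 337, 410 and 415 in MH and 193, 192 and 215 in MHE. MH lay above all other libraries, and MHE overlapped MC and MCE. Its exercise effect was 0.32 in normoxia and -0.95 in hypoxia, with an interaction of -1.28 (SE 0.26, edgeR adjusted p = 0.304).

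Pnpla7, a lysophospholipase, had the 2 E-boxes shown above and levels of 50.1, 9.89 and 14.3 CPM in MC, 177, 45.7 and 139 in MCE, 91.4, 543 and 185 in MH and 124, 87.8 and 89.2 in MHE. MH spread widely, with MH2 far above the others, and the interaction was -3.74 (SE 0.93). Further negative genes were Apold1 (an endothelial early-response gene, -2.94), Ecm1 (a matrix protein, -1.43), Rem1 (a small GTPase, -1.61), Igf2 (insulin-like growth factor 2, -1.42), Slc43a2 (an amino acid transporter, -2.31), Pdia4 and Atf6.

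Pdia4, a protein disulfide isomerase of the endoplasmic reticulum, was at 32.6, 44.5 and 23.5 CPM in MC, 40.7, 53.2 and 50.4 in MCE, 93.0, 61.7 and 92.5 in MH and 43.6, 16.2 and 25 in MHE. MH was above all other libraries, and exercise effects were 0.55 in normoxia and -1.53 in hypoxia, with an interaction of -2.08 (SE 0.49, edgeR adjusted p = 0.777). In the list of the unfolded protein response and the integrated stress response, 23 of 24 genes had a negative interaction, against 6367 of 12237 over all tested genes. At an unadjusted p under 0.05 there were 4 (Pdia4, Ppp1r15a, Eif2ak3 and Ern1), against 2.36% of all tested genes. The median was -0.63 (-0.39 without MH3). The mean was highest in MH for 16 of 24, against 28% of all tested genes. The chaperones Hspa5, Hsp90b1 and Hyou1 had interactions of -1.05 (SE 0.70), -0.99 (SE 0.56) and -1.35 (SE 0.66). Hspa5 shows how uneven they were, at 473, 312 and 1161 CPM in MH and 193, 220 and 446 in MHE. The number at an unadjusted p under 0.05 was 7 without MC2 or without MH2 and 2 without MH1. Atf6, a sensor of the same response that the list did not hold, was at 13.5, 5.94 and 12.7 CPM in MC, 42.1, 21 and 25.7 in MCE, 23.7, 27.6 and 28.5 in MH and 21.8, 14.0 and 21.2 in MHE, and had an interaction of -1.91 (SE 0.50). Heat shock genes had a median of -0.43 (-0.25 without MCE2), with 2 of 19 at an unadjusted p under 0.05 (Hsph1 and Hspa1b).

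Immediate-early genes, the first to be transcribed after contraction or stress, had the lowest median of the lists, at -1.03. Of 36 tested, 33 had a negative interaction, against 6367 of 12237 over all tested genes. At an unadjusted p under 0.05 there were 13 negative ones, against 2.36% of all tested genes. Nr4a3, an orphan nuclear receptor induced by exercise, was at 1.13, 1.98 and 0 CPM in MC, 5.58, 19.5 and 2.78 in MCE, 7.89, 63.4 and 28.5 in MH and 0.74, 5.76 and 6.42 in MHE, with an interaction of -6.60 (SE 1.56). MH was above MC and MHE with no overlap. Myc was at 11.8, 16.8 and 16.4 CPM in MC, 25.9, 59.2 and 38.3 in MCE, 29.1, 39.5 and 43.9 in MH and 39.6, 29.9 and 34.0 in MHE. For Myc every library outside MC was above MC, and the 3 other groups overlapped. Ier3 (-1.87), Sik1 (-2.42), Nr4a1 (-2.80), Fosb (-4.53), Atf3 (-2.54), Junb (-1.75) and Egr1 (-1.83) had values of the same sign, while Fos itself had -0.19 (SE 1.03).

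The early genes rested in part on 1 library. MCE2 was the highest MCE library for 32 of 36 of them, against 35.5% of all tested genes. This was not particular to early genes, as it held for 16 of 17 slow-twitch and 45 of 51 oxidative phosphorylation genes. It held for 6 of 25 interferon genes and 0 of 9 Schwann cell and nerve markers. Fosb was at 397 CPM in MCE2 and at 8.09 and 30.3 in the other MCE libraries. The summed level of 10 erythroid markers was also highest in MCE2, at 21618 CPM against 1385 to 10409 in the other libraries, and its part was not tested. Without MCE2 the number at an unadjusted p under 0.05 was 5, and without MCE1 it was 21. The median ran from -1.30 to -0.52 when each library was left out in turn. The mean was highest in MH for 24 of 36, against 28% of all tested genes. The summed level was 5316 to 8254 CPM in MH and 3419 to 4031 in MC, which did not overlap. It was 4657 to 6527 CPM in MHE and 2700 to 9239 in MCE. Cxcl1, a chemokine, was at 0 in all MC libraries, where a count of 0 allows up to 0.692 to 2.97 CPM. It was at 1.67, 33.0 and 7.65 CPM in MCE, 36.5, 61.2 and 14.2 in MH and 11.1, 4.32 and 5.13 in MHE, and no interaction value is given.

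**Figure D3:**
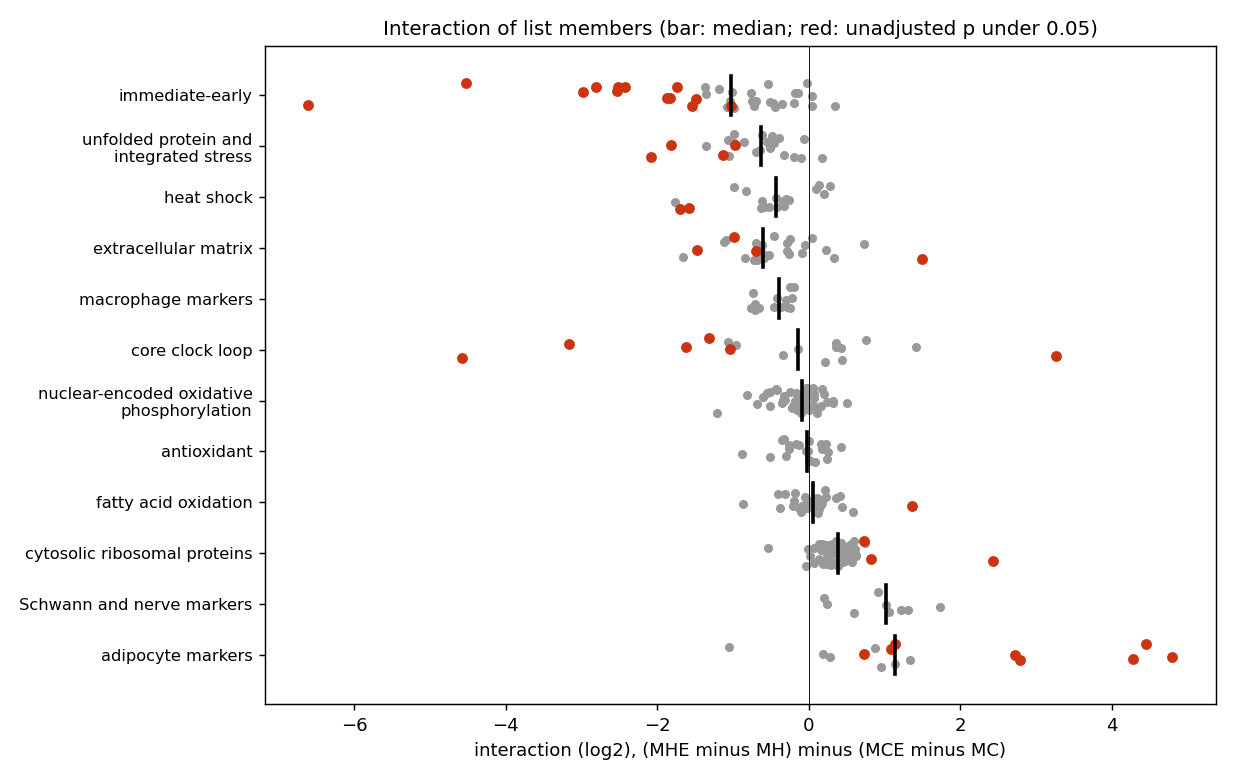
Interaction (log2, horizontal) of the tested members of 12 gene lists, 1 point per gene, with the list median as a bar and genes at an unadjusted p under 0.05 in red. Immediate-early genes lie furthest to the left (median -1.03) and adipocyte markers furthest to the right (median 1.13), while oxidative phosphorylation genes gather at 0.

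Matrix genes had a median of -0.60 (-0.39 without MC1), with 23 of 28 negative, against 6367 of 12237 over all tested genes. At an unadjusted p under 0.05, 3 were negative (Col6a2 at -0.69, Loxl2 at -1.47 and Col5a1 at -0.99) and 1 was positive (Bgn). Macrophage markers were negative in 14 of 14, against 6367 of 12237 over all tested genes, with none at an unadjusted p under 0.05. Their median was -0.40, which was -0.86 without MC3 and -0.22 without MCE3. Genes of energy metabolism had medians near 0. Of 51 nuclear-encoded genes of oxidative phosphorylation, 27 had an interval within 2-fold of additive and 0 an unadjusted p under 0.05, with a median of -0.08. The share within 2-fold was near that of all genes over 100 CPM (48.7%) and is not a result about these genes. Antioxidant genes (10 of 22 within 2-fold, median -0.02) and fatty acid oxidation genes (6 of 30, median 0.05) had similar medians. The share within 2-fold was 16% over all tested genes and rose with level, so these counts are a description only. Over the omissions of 1 library, the median ran from -0.27 to 0.20 for oxidative phosphorylation and from -0.20 to 0.47 for fatty acid oxidation, lowest without MCE1 and highest without MCE2 in both. Pdk4, the kinase that closes the pyruvate dehydrogenase complex, was the exception in the latter, at 270, 509 and 274 CPM in MC, 158, 183 and 94.3 in MCE, 83.5, 44.2 and 155 in MH and 49.9, 123 and 122 in MHE. Its exercise effect was -1.27 in normoxia and 0.09 in hypoxia. Of 25 targets of hypoxia-inducible factors, 1 was positive and 1 negative at an unadjusted p under 0.05 (Aldoc at 2.29 and P4ha1 at -1.47, which was -0.78 without MH3), and the median was -0.15, which was 0.0097 without MCE2 and -0.29 without MCE3.

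Clock output genes had a median of -0.16, which ran from -0.45 without MH2 to 0.39 without MCE2, and 2 of 11 were negative at an unadjusted p under 0.05, Dbp and Pfkfb3. Pfkfb3, which makes the activator of phosphofructokinase, was at 31.5, 18.8 and 68.2 CPM in MC, 141, 59.98 and 90.4 in MCE, 115, 224 and 62.9 in MH and 11.5, 80.2 and 81.5 in MHE, with exercise effects of 1.25 and -1.24 in normoxia and hypoxia. MHE1 was far below the other MHE libraries. Genes of the glucocorticoid response had 3 of 18 negative at an unadjusted p under 0.05 (Errfi1, Cebpd and Per1) and a median of -0.25, which was -0.05 without MCE2 and -0.56 without MHE3. Errfi1, an inhibitor of EGF receptor signalling, was at 70.9, 109 and 47.7 CPM in MC, 142, 564 and 167 in MCE, 194, 424 and 142 in MH and 222, 165 and 169 in MHE. All MC libraries were below the rest, and MCE2 and MH2 were the high libraries. Without MCE2 the interaction of Errfi1 was -1.52 against -2.42 and that of Cebpd -0.69 against -1.31.

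Among metabolic lists, insulin signalling and glucose uptake had 2 of 20 negative at an unadjusted p under 0.05 and a median of 0.06. Insr, the insulin receptor, was at 14.6, 2.97 and 8.76 CPM in MC, 27.9, 27.7 and 14.6 in MCE, 27.4, 17.8 and 33.2 in MH and 17.4, 19.8 and 27.6 in MHE, with an interaction of -1.59 (SE 0.62), and Tbc1d4, which holds back the glucose transporter GLUT4, had -1.63 (SE 0.62). For Insr the MC libraries were the low ones. The medians were 0.10 for glycolysis and lactate transport (1 positive and 1 negative of 24 at that p), 0.21 for lipid synthesis and sterol genes (1 positive of 22) and 0.01 for mitochondrial biogenesis (1 positive of 20, Dnm1l, a GTPase of mitochondrial fission). All 4 of these medians turned sign with an omission, as that of insulin signalling was -0.03 and that of glycolysis -0.13 without MC1, that of lipid synthesis ran from -0.04 without MCE3 to 0.57 without MCE2, and that of biogenesis was -0.15 without MH3.

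Fibre type genes were not resolved, since 0 of 17 slow-twitch and 0 of 15 fast-twitch genes had an interval within 2-fold of additive or an unadjusted p under 0.05. Their medians were -0.29 in both lists, but the slow-twitch median was -2.19 without MHE3 and 0.88 without MCE2, and the fast-twitch median 0.29 without MH2. Atrophy and FoxO genes had 2 of 24 negative at an unadjusted p under 0.05 and a median of -0.33, which was 0.016 without MCE2. Among myokines 2 of 15 were negative at that p, Cxcl1 and Ccl2. A negative value was seen in 12 of 15, against 6367 of 12237 over all tested genes. Ccl2, a chemokine for monocytes, was at 25.3, 21.8 and 39.2 CPM in MC, 11.4, 54.7 and 25 in MCE, 110, 99.1 and 51.0 in MH and 34.8, 26.3 and 32.7 in MHE. MH lay above MHE and MC, and exercise effects were -0.01 in normoxia and -1.49 in hypoxia. Its interaction of -1.49 was -0.80 without MCE2.

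Interferon response genes had 1 of 25 positive and 2 negative at an unadjusted p under 0.05, with a median of -0.42 that was 0.11 without MCE1. Isg15, a ubiquitin-like protein, was at 5.63, 0 and 7.15 CPM in MC, 20.4, 24.7 and 13.6 in MCE, 17, 7.56 and 20.2 in MH and 10.4, 7.91 and 6.42 in MHE. Its exercise effect was 1.99 in normoxia and -0.79 in hypoxia, and MCE lay above MC and MHE. Psmb8, an immunoproteasome subunit, had the opposite interaction of 1.42 (SE 0.57).

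Of the markers of other cells, smooth muscle and pericyte genes had a median of -0.57 (-0.36 without MCE3) and 1 of 12 negative at an unadjusted p under 0.05, Cnn1 (calponin, -1.92, SE 0.68). Endothelial genes had a median of 0.10 (-0.07 without MHE1) and 1 of 12 negative, Esam (an adhesion molecule, -1.26, SE 0.44). Satellite cell genes had a median of -0.45, which was -0.003 without MH3 and -0.95 without MC1, and 1 of 10 negative, Itga7 (integrin alpha 7, -0.91, SE 0.35), which was at 97.6, 95.2 and 107 CPM in MH, above all other libraries. Erythroid (6 genes, median -0.79), fibroblast (12 genes, -0.22), lymphocyte (3 genes, -0.14) and contractile genes (9 genes, -0.29) had none at that p. Their medians moved widely with 1 library, as the erythroid one was -0.10 without MCE2, the fibroblast one -0.48 without MC3 and -0.10 without MC2, the lymphocyte one -0.51 without MC3 and 0.08 without MHE2, and the contractile one 0.13 without MH2.

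Genes that responded to hypoxia over both states of exercise were taken next, because the average effect does not choose genes on the interaction. The average hypoxia effect was called for 12 genes (0.0981% of those tested, edgeR adjusted p under 0.05), 7 higher (0.0572%) and 5 lower (0.0409%) in hypoxia. The number was 7 without MC1, without MH1 or without MHE1, 6 without MCE1 and 5 without MC3 or without MHE3. Of the 12, 1 was additive within 2-fold, 3 had a smaller effect in combination, 1 a larger effect and 0 a turned sign. The other 7 were not resolved, because their interval reached beyond 2-fold and included 0. These classes use the interval before adjustment, and none of these interactions was called in the main test. The class of 5 genes moved with an omission, since Rpl30 had a turned sign without MCE2, Clasrp a smaller effect without MC1, MH1 or MHE3, and Arntl a smaller effect without MCE1, while Per2 without MH3 and Nrros without MCE3 were additive within 2-fold.

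Medag, a gene linked to adipogenesis, was the additive one. It was at 399, 291 and 379 CPM in MC, 342, 247 and 247 in MCE, 168, 218 and 191 in MH and 130, 162 and 122 in MHE, so all hypoxic libraries were below all normoxic ones. Its hypoxia effect was -0.89 at rest and -1.01 with exercise, and its interaction of -0.12 had an interval of -0.77 to 0.52. The added effects gave 150 CPM for MHE, and its mean was 138 CPM.

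Dbp, Nr1d2 and Rpl30 had the smaller effect in combination by their unadjusted intervals. Their interactions were not called in the main test (edgeR adjusted p = 0.299, 0.9999 and 0.123). The hypoxia effect of Dbp was 3.54 at rest and 0.86 with exercise, that of Nr1d2 1.47 and 0.43, and that of Rpl30 -2.62 and -0.20. Npas2, which was outside the rule for named genes, had the larger effect, at -1.69 at rest and -4.86 with exercise. It was at 42.8, 30.7 and 50.5 CPM in MC, 56.6, 3.75 and 36.9 in MCE, 5.81, 15.4 and 19.0 in MH and 0.74, 2.16 and 0 in MHE. MCE2 was far below the other MCE libraries, and MHE was below all others.

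Per2 was among the 7 not resolved. This clock repressor was at 10.7, 12.9 and 16.8 CPM in MC, 21.5, 24 and 24.4 in MCE, 37.4, 48.3 and 60.5 in MH and 69.2, 52.2 and 71.8 in MHE. Levels were thus lowest in MC, then MCE, then hypoxia, and its interaction was -0.34 (95% interval -1.15 to 0.46, and -0.57 without MC3 to -0.18 without MH3). Ucp3, the mitochondrial uncoupling protein of muscle, was at 231, 371 and 207 CPM in MC, 162, 149 and 211 in MCE, 30.3, 78.6 and 109 in MH and 27.7, 41.0 and 43.0 in MHE. All hypoxic libraries were below all normoxic ones, with an interaction of -0.32 (interval -1.44 to 0.81) that was 0.055 without MH3.

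Arntl, the driver of the clock loop, was at 53.4, 57.4 and 72.4 CPM in MC, 37.6, 9 and 22.6 in MCE, 4.98, 5.37 and 0 in MH and 5.92, 5.04 and 1.28 in MHE. The count of 0 in MH3 allows up to 3.56 CPM. Both hypoxic groups lay below MCE, which lay below MC, and the interaction was 1.41 with an interval of -0.39 to 3.21. Gabbr1 (a GABA-B receptor subunit) had 0.41, Nrros (a regulator of reactive oxygen species) -0.29, Atp2b3 (a plasma membrane calcium pump) -0.55 and Clasrp (a splicing-related protein) -0.79. The interval of Gabbr1, -0.22 to 1.04, just passed the limit of 2-fold. With 1 library left out, the value of Nrros was -0.04 without MCE3 and -0.47 without MCE2, that of Atp2b3 ran from -1.03 without MHE3 to -0.30 without MCE3, and that of Clasrp was -0.44 without MH2.

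**Figure D4:**
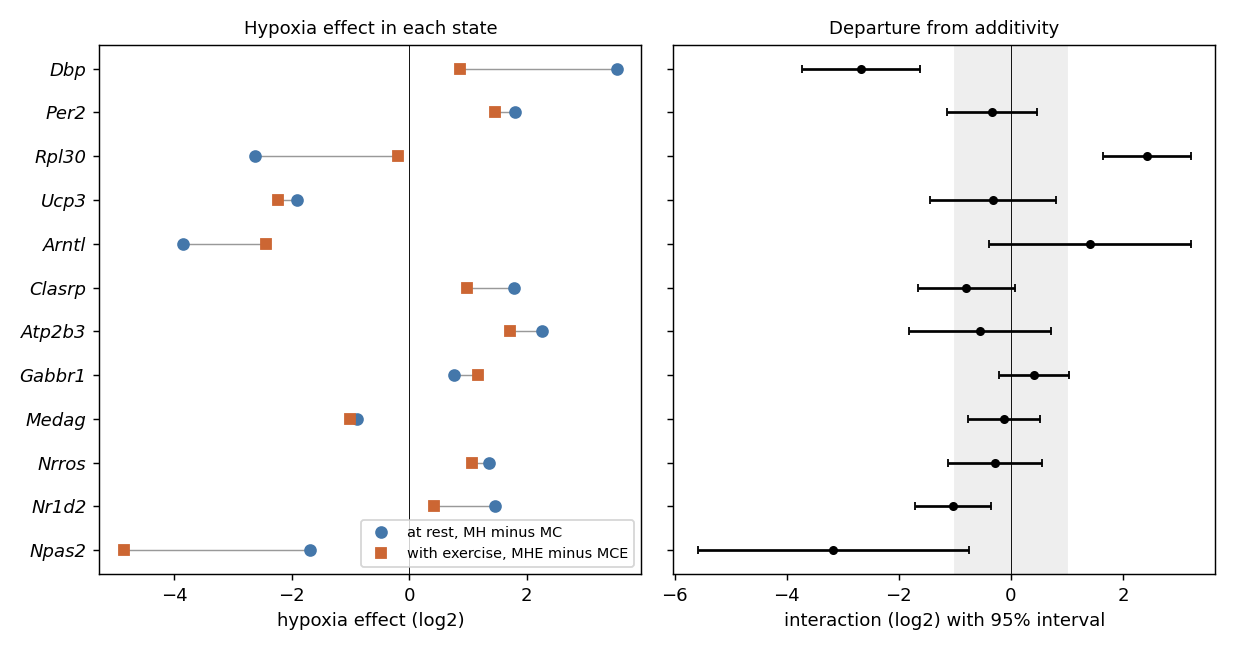
The 12 genes called for the average hypoxia effect, with the hypoxia effect (log2) at rest and with exercise on the left and the interaction with its 95% interval on the right. The grey band is the range within 2-fold of additive, which holds the whole interval of Medag only. Dbp, Nr1d2, Npas2 and Rpl30 have intervals before adjustment that exclude 0, but none of their interactions was called in the main test.

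The average exercise effect was called for 0 genes by edgeR (0%), with 370 (3.02%) at an unadjusted p under 0.05, and for 3 genes by DESeq2. Without MCE1 or without MCE2 it was called for 1 gene. The 30 genes of smallest p are therefore described with no call. Of these, 3 were additive within 2-fold, 4 had a smaller effect in combination, 4 a larger effect, 2 a turned sign by their point estimates (Rpl30 and Fmo2), and 17 were not resolved. The exercise effects in normoxia of Rpl30 (-0.21, SE 0.25) and Fmo2 (-0.05, SE 0.28) were smaller than their errors, so their sign in normoxia is not resolved. The additive ones were Sult1a1 (a sulfotransferase, 0.56 in normoxia and 0.85 in hypoxia), Lyve1 (a hyaluronan receptor of lymphatic endothelium, 0.60 and 0.62) and LOC100911825 (-0.84 and -0.90). Ddit4, an inhibitor of mTORC1 signalling, had exercise effects of 1.32 and 1.15, Fkbp5, a glucocorticoid-induced chaperone partner, 0.996 and 1.07, and Angptl4, an inhibitor of lipoprotein lipase, -1.51 and -1.32. The intervals of their interactions ran past 2-fold, from -1.40 to 1.06 for Ddit4, -1.13 to 1.27 for Fkbp5 and -0.996 to 1.36 for Angptl4.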

How the data were processed

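RNA was prepared with a stranded mRNA kit and sequenced on an Illumina platform. Per the labels, the submitters' processing notes name FastQC and Trimmomatic, and the authors used HISAT2 and the rat genome and annotation from Ensembl release 99. The program that counted reads and its strand setting are not given in the sources used here, so overlapping and antisense genes may share reads. The deposited counts are raw whole numbers for 32623 genes, not normalized by the authors, and 54 other columns of per-sample values were not used. The 37 mitochondrial genes were left out before library sizes were taken.

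Counts were fitted in R 4.3.3 with edgeR 4.0.16 (TMM, filterByExpr by group, quasi-likelihood F test), 1 mean per group and no covariate, and adjusted by Benjamini-Hochberg over 12237 genes, with a call at 0.05. The contrasts were the interaction, the 4 single differences and the average exercise and hypoxia effects. With edgeR, SE is the size of the log2 estimate divided by the square root of its F value. Intervals are the estimate with the t quantile times SE. An interval that excludes 0 therefore restates an unadjusted p under 0.05 (476 genes for each) and is not separate evidence. The MHE level under added effects is its mean divided by the fold of the interaction. The common dispersion was 0.134. CPM uses TMM-normalized nuclear totals, and limits for a count of 0 are 3 counts and cover counting error only.

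The 31 gene lists and the named genes were chosen with earlier results of these data known. Of 696 list entries, 681 matched the table, 13 of them by another symbol. Named were the 12 genes with the smallest interaction p in each direction at a mean of at least 20 CPM, up to 3 members per list at an unadjusted p under 0.05, up to 10 called responders per average effect, and Dbp, Rpl30, Arntl, Per2 and Nr1d2. 1 of the genes this rule names is not reported here. Further list members and the genes of the average exercise effect were named as examples after their values were seen. Responders were classed by the 95% interval before adjustment. They were additive when it lay within -1 to 1, otherwise smaller, larger or turned when it excluded 0. Alternatives were DESeq2 1.42.0, RLE size factors, no filter, a filter of 20 CPM in 3 libraries, mitochondrial genes kept, the replicate number as a block, each library left out in turn, nuclear depth as a covariate and the linear scale. Where an omission leaves a group of 2, its spread is pooled with the other groups. Figures were drawn with matplotlib 3.10.9 in Python 3.11.15.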

Additional observations from a re-analysis of the deposited data

How the results depend on the processing

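The number of genes called for the interaction was 0 with RLE size factors, the stricter filter, mitochondrial genes kept, the replicate block and the depth covariate, 14 with DESeq2 and 4 with no filter, and 0 to 1 over the omissions of 1 library. The average hypoxia effect was called for 98 genes with DESeq2, 38 with no filter, 6 with the replicate block and 5 to 15 over the omissions. The average exercise effect was called for 3 genes with DESeq2, 1 with no filter and 0 to 1 over the omissions. The share within 2-fold of additive was 9.87% with no filter, 25.9% with the stricter filter and 10.9% to 14.2% over the omissions, where fewer samples widen the intervals. Replicate numbers were to count as a pairing only if deviations from the group means correlated above 0.1 in every same-numbered pair. This rule was not met, as the 18 pairs ran from -0.18 to 0.24 (median 0.038, 4 over 0.1). The 36 pairs of unlike number ran from -0.26 to 0.23 (median -0.03, 6 over 0.1). Of 12 libraries, 7 correlated best with their own number. By the rule, the block is treated as a setting and not as a pairing. Dbp, Ucp3, Per2, Rpl30 and Arntl were called for the average hypoxia effect in all 19 alternatives, Clasrp and Atp2b3 in 15, Medag and Gabbr1 in 10, Nrros in 9, and Npas2 and Nr1d2 in 7.

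Of 1303 values of named interactions, 1281 kept direction and side of the threshold, 19 came to be called and 3 turned direction. The latter were Ucp3 without MH3 (0.055, with -0.70 to 0.055 over the omissions) and Medag without MC2 (0.0023) and without MCE1 (0.058, with -0.26 to 0.058). On the linear scale 65 of 69 named genes kept their sign, and Per2 (5.85 CPM), Ucp3 (60.2 CPM), Atp2b3 (3.41 CPM) and Medag (23.3 CPM) did not. Of 31 list medians, 17 turned sign in at least 1 omission and 14 kept it. Among them were atrophy and FoxO genes (-0.43 to 0.016), interferon genes (-0.73 to 0.11), the core clock (-0.43 to 0.21), contractile genes (-0.46 to 0.13), glycolysis (-0.13 to 0.27), lipid synthesis (-0.04 to 0.57), hypoxia-inducible factor targets (-0.29 to 0.0097) and antioxidant genes (-0.11 to 0.15). Arntl also had a smaller effect in combination with the depth covariate. The causes of these shifts were not tested. MH3 had the fewest nuclear counts, 841153, and its part in the precision of comparisons with MH was not tested.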
